A study of Homo sapiens with 15 samples.

Results

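The gene annotated as AL355075.4 (ENSG00000259001) was described here with RPPH1, which lies wholly inside it, with the protein-coding neighbours PARP2, CCNB1IP1, TTC5 and TEP1, and with RMRP, RN7SK, RN7SL1 and RN7SL2, which like RPPH1 are transcribed by RNA polymerase III. The members are 10 of 60612 genes in the table, in 11 rows because RMRP carries 2 gene IDs. AL355075.4 was chosen for its higher counts in every hairpin group, so its values in every comparison are a description without a test. The neighbours were chosen by position and the other RNAs by their polymerase. AL355075.4, PARP2, CCNB1IP1, TTC5, TEP1 and RN7SL1 passed the filter on low counts and are among the 16841 genes tested, and RPPH1, RMRP, RN7SK and RN7SL2 did not pass it.

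RNA-seq was run on bulk cultures of the established human glioma lines U87 and U251, in 15 libraries. The groups are U87 with hairpin 1812, U87 control, U251 with hairpin 1812, U251 with hairpin 1813 and U251 control, with 3 libraries each. The hairpins target LAMP2A, the lysosomal receptor of chaperone-mediated autophagy, in stably transfected cells, and the question was what this knockdown changes in the transcriptome. The controls are labelled wild type with no control hairpin or empty vector named, so an effect of the knockdown and an effect of carrying a hairpin vector cannot be told apart. The vector and the promoter that drives the hairpins are not given in the sources used here.

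RNA polymerase III makes short, structured RNAs. RPPH1 is the RNA subunit of RNase P, which trims the leader from precursor tRNAs, and RMRP is its relative in RNase MRP, which works in ribosomal RNA maturation. RN7SK is the 7SK RNA that holds the elongation factor P-TEFb inactive, and RN7SL1 and RN7SL2 encode the 7SL RNA of the signal recognition particle, which directs secreted and membrane proteins to the endoplasmic reticulum. The RPPH1 promoter, known as the H1 promoter, lies upstream of the transcribed part and is widely used in vectors to drive short hairpin RNAs.

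AL355075.4 is a single-exon gene of 638 bases on the minus strand at chr14:20343048-20343685 (GRCh38), classed as antisense in GENCODE 29. RPPH1 (ENSG00000277209), 333 bases on the same strand at chr14:20343075-20343407, is contained in it base for base. PARP2 (ENSG00000129484), at chr14:20343582-20357905 on the plus strand, starts head to head with RPPH1, with 174 bases between the starts, and its first exon overlaps a further 104 bases of AL355075.4 on the opposite strand. That leaves 201 bases of AL355075.4 that belong to no other gene on either strand, made up of 27 bases past the 3′ end of RPPH1 and the 174 bases between RPPH1 and PARP2.

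**Figure D1:**
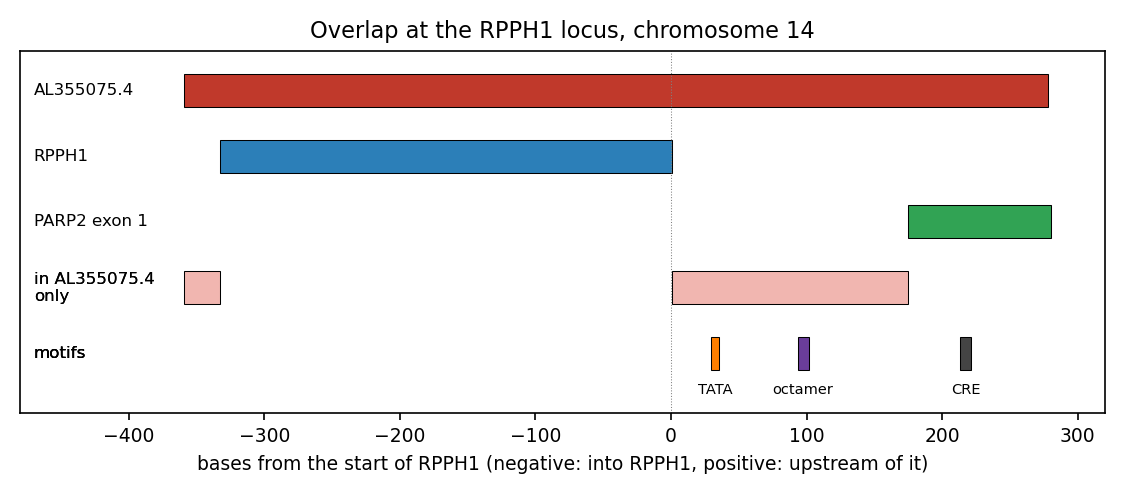
Extent of AL355075.4, RPPH1 and the first exon of PARP2 in bases from the start of RPPH1 (x axis, positive upstream), with the bases that belong to AL355075.4 alone in pale red and the positions of 3 sequence motifs below. RPPH1 lies inside AL355075.4, and the longer of its own stretches is the 174 bases directly upstream of RPPH1.

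The 174 bases are shown because they are the larger of the stretches that lie in no other gene on either strand. If reads were counted by strand, the stretch given to AL355075.4 alone would be longer. The part upstream of RPPH1 in no other gene on the same strand has 278 bases. They are read 5′ to 3′ on the minus strand from the GENCODE 29 transcript of AL355075.4, and they end at the base before RPPH1 starts. Capitals mark an octamer, ATTTGCAT, and a TATA element, TATAA found on both strands at overlapping positions.

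AL355075.4, chr14:20343408-20343581: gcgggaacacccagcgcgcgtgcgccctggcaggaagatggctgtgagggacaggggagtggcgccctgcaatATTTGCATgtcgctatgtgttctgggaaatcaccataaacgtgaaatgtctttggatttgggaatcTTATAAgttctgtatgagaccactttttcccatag

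The near end of the TATA element lies 30 bases from the start of RPPH1 and that of the octamer 94 bases. A further motif searched, TGACGTCA, lies 214 bases away, within the first exon of PARP2. On both strands, the octamer occurs in 623 of 35116 RefSeq promoter windows of 300 bases (1.77%, GRCh38.p14), TATAA in 7176 (20.4%), both in 202 (0.575%) and TGACGTCA in 649 (1.85%). These matches describe the letters only.

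Total counts ran between 14002652 and 18924072 reads per library. LAMP2, counted as a whole gene and so no check of the LAMP2A isoform itself, had 257, 256 and 289 CPM (read count scaled to library size) with hairpin 1812 in U87, against 195, 294 and 292 CPM in U87 control (log2 fold change 0.04, adjusted p = 0.892). Control replicate 1 was the low one, and over 14 alternative settings or left-out libraries this log2 fold change ran from -0.12 to 0.45. In U251, the LAMP2 log2 fold change was -1.12 with hairpin 1812 (adjusted p = 0.00353) and -0.79 with hairpin 1813 (adjusted p = 0.0907). The libraries carried the glioma markers VIM and CD44, while GFAP averaged 1.30 ± 0.281 CPM in U87 with hairpin 1812 and 1.89 ± 0.211 CPM in U87 control (SD, n = 3 each). In U251, GFAP, the astrocyte filament protein, averaged 17.6 ± 7.53 CPM with hairpin 1812 and 55.0 ± 10.5 CPM with hairpin 1813, against 116 ± 25.0 CPM in control (SD, n = 3 each), with log2 fold changes of -2.72 (adjusted p = 2.68e-04) and -1.08 (adjusted p = 0.204). The leukocyte gene PTPRC stayed at or below 0.585 CPM in every library. Not all markers of other cells were that low: the epithelial EPCAM averaged 1.53 ± 0.452 CPM in U87 control (SD, n = 3). The endothelial PECAM1 and the oligodendrocyte MBP passed the filter on low counts, and the neuronal RBFOX3 was not among the genes tested. With hairpin 1812 in U87, PECAM1 and MBP had log2 fold changes of 1.93 and 1.45, given without a test. NES and S100B, further glioma and astrocyte markers, were higher in U251 control than in U87 control, by 2.77 and 4.14 on the log2 scale. SLC1A3, a further astrocyte marker, was higher with hairpin 1812 in U87 (log2 fold change 0.59, adjusted p = 0.0117). In U251 it was lower with hairpin 1812 (-0.71, adjusted p = 0.0265) and, without passing, with hairpin 1813 (-0.69, adjusted p = 0.0907). Replicate 1 of each control group stood apart from replicates 2 and 3: the nuclear RNA MALAT1 had 250.7 to 391 CPM in the 4 libraries that are control replicate 2 or 3, against 32.7 to 101 CPM in the other 11 libraries. Results that rest on this division are given with it.

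AL355075.4 was far higher in all 9 hairpin libraries than in the 6 control libraries. It had 229, 90.1 and 76.6 CPM in U87 with hairpin 1812, against 0, 0.415 and 0.186 CPM in U87 control. The groups did not overlap, and the 3 U87 control libraries together held 9 counts, with none in replicate 1, against 6143 counts in the 3 hairpin libraries. The log2 fold change was 9.32 (SE 0.65), and it ranked 1 of 16841 genes by log2 fold change.

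In U251, AL355075.4 had 274, 241 and 172 CPM with hairpin 1812, and 99.3, 157 and 148 CPM with hairpin 1813, against 13.4, 9.96 and 7.46 CPM in U251 control. Every hairpin library lay above every control library, and here the controls themselves held 560 counts. The log2 fold change was 4.48 (SE 0.45) with hairpin 1812 and 3.71 (SE 0.43) with hairpin 1813, which ranked 3 and 7 of 16841 genes. Both comparisons use the same control libraries. Between lines, the gain with hairpin 1812 was larger in U87 than in U251 by 4.84 on the log2 scale (SE 0.79). The levels with hairpin 1812 averaged 132 ± 84.4 CPM in U87 and 229 ± 52.0 CPM in U251 (SD, n = 3 each), so as a ratio, not in CPM, the lines stood further apart in their controls.

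**Figure D2:**
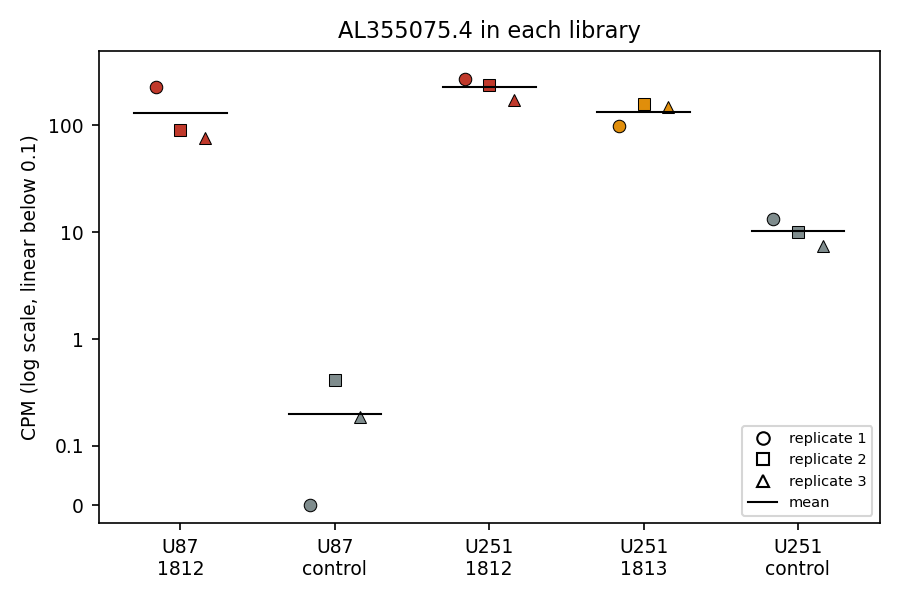
CPM of AL355075.4 in each library (y axis, log scale, linear below 0.1), by group, with symbols for the replicate number and a line at the mean. The 9 hairpin libraries sit between 76.6 and 274 CPM, all above the control libraries, which reach 13.4 CPM.

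Per unit of length, AL355075.4 stood among the abundant transcripts of the hairpin libraries. Its FPKM, the read count scaled to exon length and library size, averaged 190 ± 123 in U87 with hairpin 1812, against 0.323 ± 0.336 in U87 control (SD, n = 3 each). In U251 it averaged 375 ± 86.5 FPKM with hairpin 1812 and 213 ± 52.3 FPKM with hairpin 1813, against 17.0 ± 4.23 FPKM in U251 control (SD, n = 3 each). By FPKM it ranked 87, 355 and 391 among the 60612 genes in U87 with hairpin 1812, against 21964, 13729 and 16417 in U87 control. In U251 it ranked 60, 69 and 105 with hairpin 1812 and 280, 128 and 146 with hairpin 1813, against 2440, 2993 and 3862 in U251 control. These FPKM values divide by all 638 bases, although only 201 bases lie in no other gene on either strand. In bulk samples, more cells with the RNA and more RNA per cell cannot be told apart.

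The replicates of a hairpin group were not alike in level. The highest library exceeded the lowest 2.99-fold in U87 with hairpin 1812, 1.59-fold in U251 with hairpin 1812 and 1.58-fold in U251 with hairpin 1813, against 1.80-fold in U251 control.

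The comparison of the untreated lines uses control libraries by which AL355075.4 was chosen, so it is also a description without a test. AL355075.4 was higher in U251 control than in U87 control, at 10.3 ± 2.98 CPM in U251 control and 0.200 ± 0.208 CPM in U87 control (SD, n = 3 each). The log2 fold change was 5.64 (SE 0.65). The background is high, since 50% of tested genes differed between the lines at an adjusted p under 0.05.

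Between the hairpins in U251, AL355075.4 averaged 229 ± 52.0 CPM with hairpin 1812 and 135 ± 31.1 CPM with hairpin 1813 (SD, n = 3 each), and all 3 libraries with 1812 lay above all 3 with 1813. The log2 difference was 0.76 (95% interval -0.06 to 1.59), and it ran from 0.58 to 0.93 over the 14 alternatives. AL355075.4 was chosen by its counts in these libraries, so this too is a description without a test. No tested member passed in this comparison, where 0.0772% of genes passed.

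RPPH1, whose 333 bases all lie within AL355075.4, had 0 counts in all 15 libraries. In HTSeq's default mode a read that touches more than 1 gene is given to none, and the mode and strand used here are not given in the sources used here. Among genes with the same bounds in GENCODE 29, 933 of 1087 whose every exonic base is shared with a gene on the same strand had 0 counts in all libraries (85.83%), against 18096 of 33258 genes that share no exonic base (54.41%). Of 692 genes whose every base is shared only with a gene on the opposite strand, 677 had 0 counts (97.83%). A count of 0 for RPPH1 therefore gives no level of the RNase P RNA. The table holds totals per gene and no read positions, so from which bases, and which strand, the AL355075.4 reads came cannot be told. Whether reads from a hairpin vector that carries the RPPH1 promoter entered the AL355075.4 counts was not tested, and this bears on every CPM, FPKM and rank given for it.

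The same holds for RN7SK and RMRP. RN7SK (ENSG00000283293), at chr6:52995621-52995948 on the plus strand, lies wholly inside AL162581.1 on that strand, and both had 0 counts in every library. RMRP has a row of 268 bases (ENSG00000269900) around a row of 264 bases (ENSG00000277027) on chromosome 9. The longer row, with 4 bases of its own, held 3 counts in all libraries together and the shorter row 0.

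RN7SL1 (ENSG00000276168), at chr14:49586580-49586878 on the plus strand, and RN7SL2 (ENSG00000274012), at chr14:49862550-49862849 on the minus strand, are copies of the 7SL gene, so reads may be split between them or lost in counting. In GENCODE 29 all 299 bases of RN7SL1 are shared with a further gene on its own strand, although no gene of the deposited table overlaps it on that strand. It lies within the span of RPS29 on the opposite strand. RN7SL2 lies within the span of AL627171.2 and shares no exonic base with it in GENCODE 29. RN7SL1 held 2145 counts in all and RN7SL2 held 0, so of this pair only RN7SL1 carries a value, and how fully it was counted is not known. RN7SL1 had 6.87, 11.3 and 14.5 CPM with hairpin 1812 in U87, against 15.3, 8.72 and 12.4 CPM in U87 control. In U251, RN7SL1 had 6.45, 4.20 and 9.87 CPM with hairpin 1812 and 7.28, 7.22 and 12.1 CPM with hairpin 1813, against 5.32, 4.004 and 12.4 CPM in U251 control. Hairpin and control libraries overlapped in each of these comparisons. The log2 fold changes of RN7SL1 were -0.16, -0.08 and 0.29, with adjusted p of 0.836, 0.942 and 0.752. Their 95% intervals ran from -1.05 to 0.73 in U87, from -0.99 to 0.83 with hairpin 1812 in U251 and from -0.62 to 1.20 with hairpin 1813.

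RN7SL1 did not pass between the lines (U251 control over U87 control, log2 fold change -0.75, adjusted p = 0.158). It passed with replicate number as a block, at -0.88 (adjusted p = 0.0263), and without replicate 3 of U251 control, at -1.37 (adjusted p = 0.015).

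Of 21 small RNAs made by polymerase III that were listed, 20 have a row in the table. Among these, 7 were at 0 counts in all libraries, 9 held between 1 and 20 counts in all and 4 were tested: RN7SL1, RN7SL3, BCYRN1 and the vault RNA VTRNA1-2. Neither RN7SL1 nor VTRNA1-2 passed in a knockdown comparison, where 13.6% of genes passed with hairpin 1812 in U87, 0.992% with hairpin 1812 in U251 and 0.0475% with hairpin 1813. BCYRN1, the brain cytoplasmic RNA, and RN7SL3, a further 7SL copy that may share reads with RN7SL1, held most of their counts in U87. BCYRN1 held 210 counts in U87 with hairpin 1812 and 54 in U87 control, and 7 with hairpin 1812, 18 with hairpin 1813 and 8 in control in U251. RN7SL3 held 0 counts in U251 control and 38 in U87 control. Both passed the filter through the U87 libraries, where they are high. Their differences between the lines and between hairpin and control are therefore a description without a test.

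PARP2, the head-to-head neighbour and a poly(ADP-ribose) polymerase of DNA strand-break repair, did not pass in any comparison of hairpin with control. PARP2 had 51.1, 35.6 and 38.8 CPM with hairpin 1812 in U87, against 30.9, 45.7 and 47.9 CPM in U87 control. In U251 it had 47.2, 55.8 and 57.1 CPM with hairpin 1812 and 50.6, 57.8 and 56.2 CPM with hairpin 1813, against 52.7, 51.5 and 53.5 CPM in U251 control. The groups overlapped throughout. The log2 fold changes of PARP2 were 0.01 (95% interval -0.36 to 0.38) in U87, 0.02 (-0.35 to 0.39) with hairpin 1812 in U251 and 0.06 (-0.31 to 0.43) with hairpin 1813, with adjusted p of 0.984, 0.963 and 0.886.

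CCNB1IP1, a cyclin B1-interacting ubiquitin ligase, lies past the 3′ end of RPPH1 on the same strand (chr14:20311368-20333312). It had 17.0, 18.6 and 19.4 CPM with hairpin 1812 in U87, against 18.5, 19.9 and 17.8 CPM in U87 control, and these overlapped. In U251, CCNB1IP1 had 45.5, 37.8 and 38.8 CPM with hairpin 1812 and 37.9, 35.4 and 37.2 CPM with hairpin 1813, against 37.4, 24.3 and 25.4 CPM in U251 control. All 3 libraries with hairpin 1812 lay above the controls, and control replicate 1 lay far above the other controls. The log2 fold change with hairpin 1812 was 0.49 (SE 0.16, adjusted p = 0.166), which did not pass. Without U251 control replicate 1 it was 0.72 (adjusted p = 0.0196), with adjusted p between 0.0196 and 0.787 over the alternatives. The changes of CCNB1IP1 with hairpin 1812 in U87 (-0.03, adjusted p = 0.918) and with hairpin 1813 (0.34, adjusted p = 0.379) did not pass. CCNB1IP1 was higher in U251 control than in U87 control (log2 fold change 0.63, adjusted p = 0.00448), which did not pass when these groups were fitted alone (adjusted p = 0.0589).

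TTC5, a cofactor of p300 in the p53 response that also takes part in the decay of tubulin mRNA, lies at chr14:20256558-20305960 on the minus strand. It had 14.3, 19.1 and 15.7 CPM with hairpin 1812 in U87, against 18.5, 23.3 and 21.7 CPM in U87 control, with 1 hairpin library above the lowest control. In U251 it had 21.9, 18.5 and 19.5 CPM with hairpin 1812 and 23.1, 20.2 and 21.1 CPM with hairpin 1813, against 22.9, 15.6 and 14.4 CPM in U251 control. TTC5 did not pass in any of these comparisons, with log2 fold changes of -0.37, 0.18 and 0.28 and adjusted p of 0.196, 0.65 and 0.477.

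TEP1, a protein of the vault particle and the telomerase complex, lies at chr14:20365667-20413501 on the minus strand. Of the members given a test, it alone passed in a knockdown comparison, and its call rests on the division among the controls. TEP1 had 10.5, 11.3 and 10.6 CPM with hairpin 1812 in U87, against 10.6, 27.9 and 29.3 CPM in U87 control. Control replicate 1 was level with the hairpin libraries and replicates 2 and 3 were well above them, which is the division that MALAT1 showed. The log2 fold change was -1.06 (SE 0.31, adjusted p = 0.0358), and 7.74% of all genes tested passed as lower. With control replicate 1 alone as the control it was 0.02 (adjusted p = 0.963), and with a term for control replicates 2 and 3 of both lines it was -0.18 (adjusted p = 0.536). Fitted with the U87 groups alone it did not pass (adjusted p = 0.202), nor when any 1 U87 library other than control replicate 1 was left out (adjusted p between 0.0865 and 0.154).

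In U251, TEP1 had 14.5, 13.8 and 13.9 CPM with hairpin 1812 and 10.1, 12.8 and 12.5 CPM with hairpin 1813, against 10.8, 19.5 and 19.8 CPM in U251 control. Again replicate 1 stood apart from the other controls, and neither change passed (log2 fold changes -0.25 and -0.50, adjusted p = 0.712 and 0.455).

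**Figure D3:**
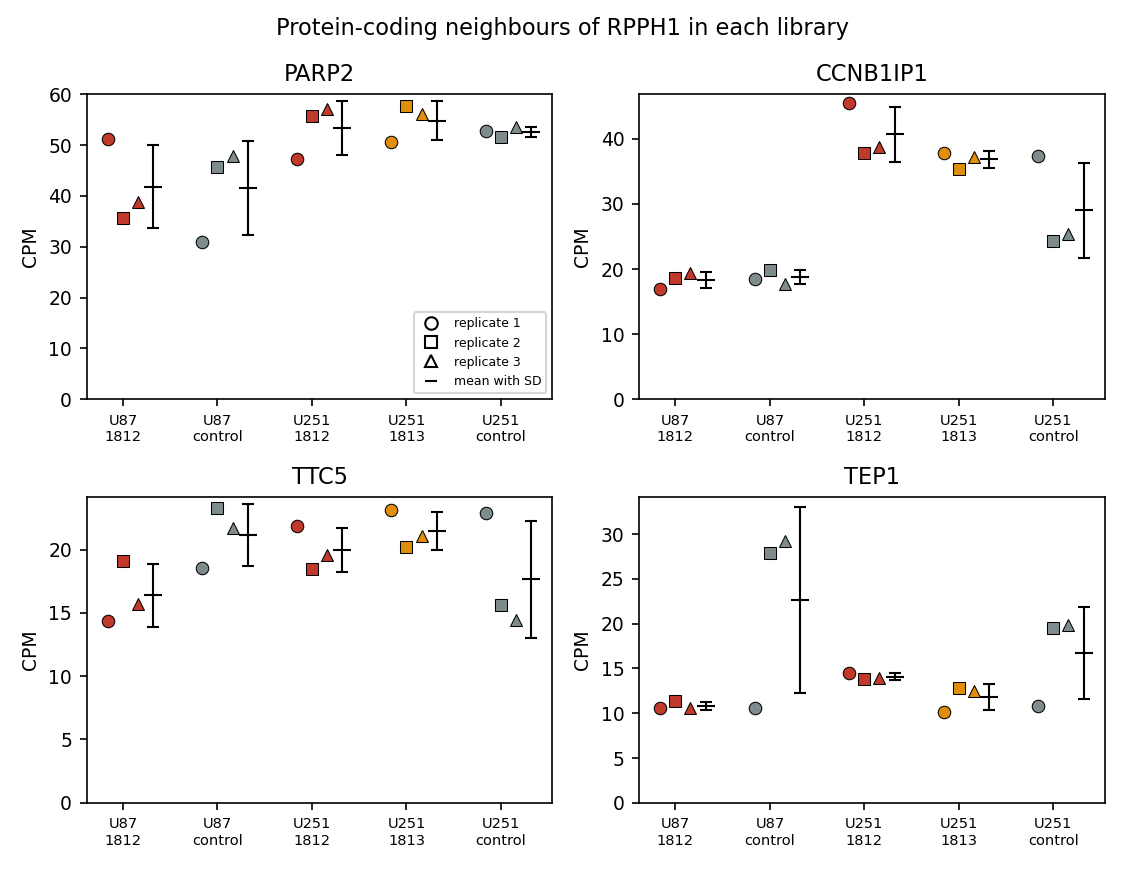
CPM of PARP2, CCNB1IP1, TTC5 and TEP1 in each library (y axes from 0), by group, with symbols for the replicate number and mean ± SD beside them. In TEP1, control replicate 1 of each line (10.6 CPM in U87 and 10.8 CPM in U251) lies far below replicates 2 and 3.

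The wider locus, 200 kb to either side of RPPH1, holds 34 genes in the table, of which 15 were at 0 counts in all libraries and 10 were tested. Apart from AL355075.4 these are TTC5, CCNB1IP1, AL355075.6, PARP2, TEP1, OSGEP, APEX1, PIP4P1 and PNP. AL355075.6 passed the filter on low counts mainly through U87 control, where it is high, so its difference in U87 is a description without a test. Of the others, TEP1 passed as lower with hairpin 1812 in U87 and none as higher. Over all genes tested, 7.74% passed as lower and 5.86% as higher. AL355075.6, an unnamed gene within CCNB1IP1 on the other strand, is sparse, with 0.128, 0.176 and 0.0733 CPM with hairpin 1812 in U87 and 0.0673, 0.899 and 1.11 CPM in U87 control (log2 fold change -2.37). Its control replicate 1 was again the low one, and with that replicate alone as the control its log2 fold change was 0.86. With either hairpin in U251, none of the 9 passed. The median log2 fold change of the 9 was -0.20 in U87, 0.18 with hairpin 1812 in U251 and 0.32 with hairpin 1813, against -0.03, 0.01 and -0.02 over all genes tested.

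**Figure D4:**
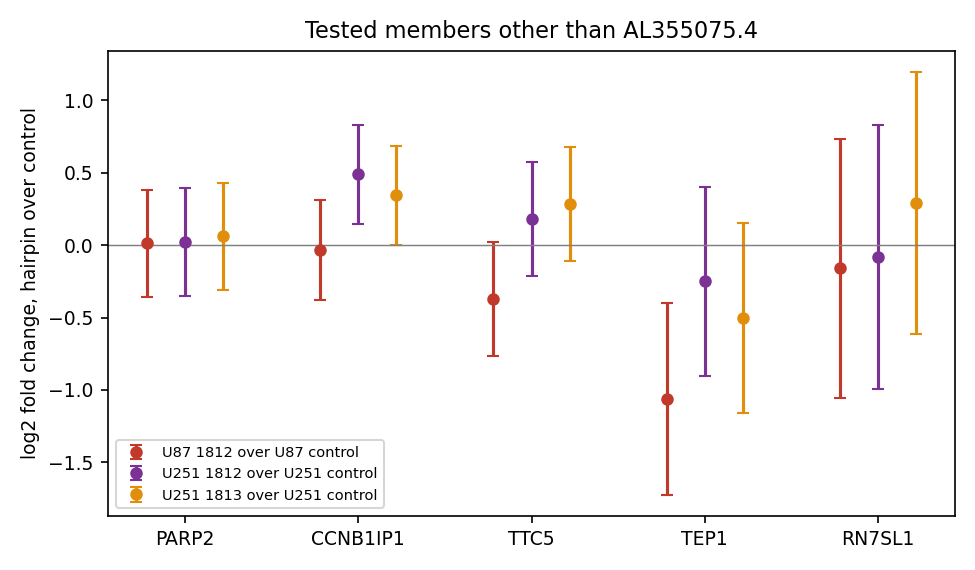
Log2 fold change of hairpin over control (y axis) with 95% intervals from edgeR for the 5 tested members other than AL355075.4, by comparison. Every interval includes 0 except TEP1 in U87 and CCNB1IP1 in U251.

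With hairpin 1812 in U87, 5.86% of all genes tested passed as higher. Of 11 tested proteins of RNase P and RNase MRP, RPP30 alone passed with hairpin 1812 in U87, as higher, at 61.2, 74.8 and 72.1 CPM in the hairpin libraries, against 58.0, 45.0 and 46.5 CPM in U87 control (log2 fold change 0.48, SE 0.14, adjusted p = 0.0407). The hairpin libraries all lay above the controls, narrowly for control replicate 1. The list's log2 fold change was positive for 10 of 11 genes in U87 with a median of 0.31, for 8 of 11 with hairpin 1812 in U251 with a median of 0.33, and for 10 of 11 with hairpin 1813 with a median of 0.31. Over all genes tested the medians were -0.03, 0.01 and -0.02, and no set was tested. In U251 none of the 11 passed with either hairpin, where 0.992% of all genes passed with hairpin 1812 and 0.0475% with hairpin 1813.

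None of the 13 tested subunits of polymerase III passed in a knockdown comparison, where 13.6%, 0.992% and 0.0475% of all genes passed. Their medians were 0.15, 0.29 and 0.20, against -0.03, 0.01 and -0.02 over all genes tested. Of 19 factors of polymerase III initiation and control, 1 passed with hairpin 1812 in U87, SNAPC4, as lower. This stands beside 7.74% of all genes tested that passed as lower there. SNAPC4 is a subunit of the complex that binds the promoters of small nuclear RNA genes and of RPPH1. SNAPC4 had 17.1, 16.5 and 13.0 CPM in the hairpin libraries, against 25.5, 21.0 and 20.3 CPM in U87 control, with no overlap (log2 fold change -0.52, adjusted p = 0.0407). SNAPC5, of the same complex, differed in its response to hairpin 1812 between the lines (-0.93 in U87 minus U251, adjusted p = 0.0447), in a test in which 4.51% of genes passed. With either hairpin in U251 none of the 19 passed.

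Of 6 proteins of the signal recognition particle, SRP19 was higher with hairpin 1812 in U87, at 59.9, 59.7 and 66.4 CPM, against 49.5, 43.5 and 48.5 CPM in U87 control (log2 fold change 0.39, adjusted p = 0.0459). Of 8 genes of the vault and of telomerase, MVP, the major vault protein, was lower there beside TEP1, at 169, 242 and 202 CPM, against 312, 277 and 264 CPM in U87 control (log2 fold change -0.48, adjusted p = 0.0462). Both genes had no overlap between the groups. These counts, 1 of 6 higher and 2 of 8 lower, stand beside 5.86% of all genes higher and 7.74% lower. GAR1, of the telomerase and H/ACA particles, differed in its response between the lines (-0.67 in U87 minus U251, adjusted p = 0.045). These calls in U87 are weak ones: of 14 alternative settings or left-out libraries, RPP30 did not pass in 8, SNAPC4 in 7, SRP19 in 10 and MVP in 6. RPP30 was 0.26 (adjusted p = 0.162) and SRP19 0.28 (adjusted p = 0.132) with the term for control replicates 2 and 3. Of 20 alternatives, the differences between the lines did not pass in 12 for GAR1 and in 13 for SNAPC5.

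None of 7 genes of the 7SK particle, 2 of the La and Ro proteins or 6 of the PARP family and its partners passed in a knockdown comparison, where 13.6%, 0.992% and 0.0475% of all genes passed.

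Between the lines, 24% of all genes tested were higher and 26% lower in U251 control. Among the 11 proteins of RNase P and MRP, RPP21 was higher in U251 control (log2 fold change 0.82, adjusted p = 0.00695) and POP5 was lower (-1.02, adjusted p = 0.00256). RPP25, which reached its counts in U87, held 17 counts in U251 control and 185 in U87 control and is given without a test. Of the 13 polymerase III subunits 3 were higher and 1 was lower, among them POLR3F (0.61, adjusted p = 0.0015). HEXIM1, the protein that blocks P-TEFb within the 7SK particle, was higher in U251 control (1.43, adjusted p = 2.78e-06), and CDK9, the kinase of P-TEFb, was lower (-0.94, adjusted p = 0.00602). CDK9 was uneven in U87 control, from 45.6 to 102 CPM, and without 1 replicate its log2 fold change ran from -1.14 to -0.44. Of 14 alternatives, RPP21, POP5 and CDK9 each did not pass in 1.

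Over the 15 libraries, the genes whose log2 CPM was most like that of AL355075.4 were ORC3, NR2F1-AS1, PKIA, NGLY1 and SMIM10, with Pearson's r of 0.943, 0.938, 0.934, 0.933 and 0.914 among 16840 genes compared. These libraries fall into hairpin and control groups that AL355075.4 was chosen to separate, so r describes that division, and no p is given. ORC3, a subunit of the origin recognition complex, had 76.1, 67.0 and 69.3 CPM with hairpin 1812 in U87, against 44.4, 40.0 and 42.2 CPM in U87 control. In U251, ORC3 had 67.8, 66.9 and 75.3 CPM with hairpin 1812 and 64.7, 74.6 and 65.2 CPM with hairpin 1813, against 56.0, 62.4 and 57.8 CPM in U251 control. Its hairpin and control libraries did not overlap in either line, while the hairpin groups in U251 overlapped each other.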

How the data were processed

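Total RNA depleted of ribosomal RNA was sequenced with random primers and dUTP strand marking, per the labels' protocols. They name more than 1 extraction method and sequencer and do not assign them to libraries. According to the submitters' processing notes, the tools were bcl2fastq 2.17.1.14, cutadapt 1.9.1, HISAT2 2.0.1 and HTSeq 0.6.1 on GRCh38, with bedtools 2.17.0 and DESeq2 also listed. For the annotation release, counting mode and counting strand, nothing is given in the sources used here. Per gene and library, the authors deposited a read count and an FPKM value, with exonic lengths. FPKM recomputed from the deposited counts and lengths matched within 0.005.

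Counts were tested with edgeR 4.0.16 in R 4.3.3 (TMM scaling, filterByExpr, quasi-likelihood, two-sided). All 15 libraries entered 1 fit of 5 group means, and p-values were adjusted by Benjamini-Hochberg over the 16841 genes tested, with a threshold of 0.05. CPM is the count scaled to the TMM-adjusted library size. SE is that of the log2 fold change. Whether replicates came from separate cultures is not said, and p-values therefore measure the spread between these libraries only, which may be technical. Overlaps and the printed sequence are from GENCODE 29, which holds 58394 of the table's gene IDs, 44979 with the same bounds. The fit was tested on simulated data.

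The members and gene lists were chosen with earlier results of these data known. Genes named are the members, up to 4 passing genes of each list with the smallest adjusted p, and the 5 genes most like AL355075.4. BCYRN1, RN7SL3, LAMP2, MALAT1 and cell type markers were named beside them, and not all genes that the rule allows are named for the comparison of the lines.

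The labels number replicates 1 to 3 in each group. Deviations of same-numbered libraries from their group means correlated above 0.1 in all 3 pairs in 2 comparisons, which were taken as paired by number. These were U251 hairpin 1813 with U251 control (0.389, 0.197 and 0.240) and U251 control with U87 control (0.422, 0.263 and 0.318). In the other comparisons the 3 pairs were not all above 0.1. Unlike-numbered replicates 2 and 3 also correlated, at 0.270 and 0.297 between the control groups and at 0.149 and 0.114 for hairpin 1813. Pairing by number and the separation of replicate 1 from replicates 2 and 3 therefore cannot be told apart here. The main fit holds no term for pairing. Alternatives tried were DESeq2 1.42.0, no filter, a replicate block, a term for control replicates 2 and 3, control replicate 1 alone, the compared groups alone and leaving out each replicate.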

Additional observations from a re-analysis of the deposited data

Results flagged for a closer look

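LAMP2, GFAP, SNAPC5 and GAR1 had a tested difference in the effect of hairpin 1812 between the lines, by an edgeR contrast over all genes with the adjusted p given. The effect in U87 minus that in U251 was 1.16 on the log2 scale for LAMP2 (adjusted p = 0.00931), 2.20 for GFAP (adjusted p = 0.0152), -0.93 for SNAPC5 (adjusted p = 0.0447) and -0.67 for GAR1 (adjusted p = 0.045). The marker SLC1A3 also passed in this edgeR contrast, at 1.30 (adjusted p = 0.00287). LAMP2 was 319 ± 7.51 CPM with hairpin 1812 and 694 ± 29.9 CPM in control in U251, and 267 ± 18.6 CPM with hairpin 1812 and 260.2 ± 56.7 CPM in control in U87 (SD, n = 3 each).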

How the results depend on the processing

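In the 6 comparisons the number of passing genes depended on the settings more than the members' values did. With hairpin 1812 in U87, 2291 genes passed, against 3804 with control replicate 1 alone, 1 with the compared groups alone and 889 to 8152 without 1 replicate. With hairpin 1812 in U251, 167 passed, against 717 with no filter on low counts, 324 with the replicate block, 529 with the term for control replicates 2 and 3, 834 with the compared groups alone, 814 with DESeq2 and 14 to 506 without 1 replicate. With hairpin 1813, 8 passed, against 461 with no filter, 34 with the term, 20 with control replicate 1 alone, 50 with the compared groups alone, 2.5e+02 (to 2 digits) with DESeq2 and 2 to 280 without 1 replicate. For U251 control over U87 control, 8426 passed, against 5412 with the compared groups alone and 7397 to 10240 without 1 replicate. For hairpin 1812 over 1813, 13 passed, against 122 with no filter, 113 with the term, 249 with control replicate 1 alone, 625 with the compared groups alone, 122 with DESeq2 and 0 to 4 without 1 replicate (edgeR found 1044 genes there at an unadjusted p under 0.05). For the difference between the lines in the effect of hairpin 1812, 760 passed, against 2364 with the term, 1693 with control replicate 1 alone, 331 with the compared groups alone, 1562 with DESeq2 and 229 to 3905 without 1 replicate. The cause was not tested. AL355075.4 kept its direction in every alternative run. Without 1 replicate, its log2 fold change was 8.67 to 10.3 in U87, 4.29 to 4.73 with hairpin 1812 in U251, 3.53 to 3.96 with hairpin 1813, 5.09 to 6.62 between the control lines, 0.58 to 0.93 between the hairpins and 4.19 to 5.83 for the difference between the lines. With control replicate 1 alone, which holds 0 counts in U87, the fitted values of 13.97 in U87 and 9.88 for the difference between the lines depend on the prior count and are no bounds. With control replicate 1 alone, the log2 fold changes of TEP1 (0.0227) and AL355075.6 (0.858) in U87 turned from negative to positive. The call of TEP1 in U87 was lost in 8 of 14 alternatives. Between the control lines, PARP2 passed with the term (0.36, adjusted p = 0.0417) and with control replicate 1 alone (0.77, adjusted p = 0.0144). There TEP1 passed with the term (-0.37) and without U87 control replicate 1 (-0.77), TTC5 without U251 control replicate 1 (-0.50), and RN7SL1 with no filter (-0.73) and with control replicate 1 alone (-1.52). The difference between the lines in the effect of hairpin 1812 passed for TEP1 with the term (-0.74) and without U87 control replicate 1 (-1.14), and for CCNB1IP1 without U251 control replicate 1 (-0.75). In the comparisons taken as paired by number, the replicate block changed no member's call except that of RN7SL1 between the lines. LAMP2 with hairpin 1813 passed in 5 of 14 alternatives.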
